A study of Mus musculus with 9 samples.

Results

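miR-132 and miR-212 are a pair of microRNAs (miRNAs) made from neighbouring hairpins of one primary transcript. Each hairpin can release a mature miRNA from its 5′ arm and another from its 3′ arm, so the pair comprises miR-132-3p, miR-132-5p, miR-212-3p and miR-212-5p. These 4 mature miRNAs were found by name among the 860 in the data, and all 4 were measured in every library. The small RNA of subcutaneous (under the skin) adipose tissue was sequenced in 9 mice. The groups were 3 wild-type littermates (WT), 3 mice labelled Hete KO and 3 labelled Homo KO, both with a knockout of Ago1 in the endothelial cells that line blood vessels. The product of Ago1 is one of the Argonaute proteins, which hold mature miRNAs and pair them with target mRNAs. Mice of all 3 genotypes were 24 weeks old and had been on a high-fat, high-sucrose diet since they were 8 weeks old, that is for 16 weeks. Each replicate was an individual mouse. The sources used here do not give the driver of the endothelial knockout, the strain or how much Ago1 was left in each genotype. Whole tissue was sequenced, although the knockout was made in 1 of its cell types.

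The primary transcript of miR-132 and miR-212 is induced by the transcription factor CREB, for example by neuronal activity and by growth factors. In endothelial cells, miR-132 is known to be induced by angiogenic growth factors and to repress Rasa1, which encodes a GTPase-activating protein that switches Ras off, and so to favour the growth of new vessels. The 3p arms of both hairpins are known as guide strands, the strands kept by Argonaute. A miRNA finds its targets mainly through its seed, bases 2 to 8 from the 5′ end.

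The sequences below, from RefSeq on GRCm38.p6, show which arms could share targets. Bases 2 to 8 are in capitals.
miR-132-3p: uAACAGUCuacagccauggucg
miR-212-3p: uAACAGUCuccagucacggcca
miR-132-5p: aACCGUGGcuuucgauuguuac
miR-212-5p: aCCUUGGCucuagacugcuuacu
The seed of miR-132-3p, AACAGUC, was also that of miR-212-3p, and among the 1679 distinct mature names in the RefSeq table only these 2 held it. Of their 22 bases 17 were the same, and the first 9 were all the same. Counted from the 5′ end, with the base of miR-132-3p first and that of miR-212-3p last, they differed by A10C, C14U, U17C, U20C and G22A. The seeds of the 5p arms, ACCGUGG and CCUUGGC, differed from each other and from that of the 3p arms. By name, 698 of the 860 miRNAs and 4 of these 4 were matched in the table.

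The hairpins are shown next because the position of each arm in its hairpin sets the comparisons between arms made further on. Capitals mark the 5p arm, then the 3p arm.
Mir212: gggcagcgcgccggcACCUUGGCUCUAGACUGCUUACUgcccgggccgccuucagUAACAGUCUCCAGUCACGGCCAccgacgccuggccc
Mir132: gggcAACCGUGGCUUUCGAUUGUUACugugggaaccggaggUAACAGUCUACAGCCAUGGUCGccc
Both lie on the + strand of mouse chromosome 11, Mir212 at chr11:75173388-75173478 and Mir132 at chr11:75173682-75173747, with 203 bases between them. In the GENCODE vM21 annotation of the same assembly, both are in the intron between exon 1 (chr11:75172560-75172597) and exon 2 (chr11:75173978-75174161) of the noncoding gene 1700016P03Rik. Neither hairpin overlapped a coding exon or a UTR. The nearest protein-coding gene upstream was Hic1, on the opposite strand, at chr11:75164565-75169519.

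The deposited values carry the name FPKM, but judged by the values themselves they are log2(x + 1) and quantile-normalized: the libraries hold nearly the same set of values in different orders, apart from ties such as those at the lowest value. The number of reads is therefore unknown, and no counting interval can be given. A possible trace of depth is how many miRNAs sat at the minimum of their library. This number was between 63 and 104 in WT, between 101 and 152 in Hete KO and between 102 and 141 in Homo KO. Whether it reflects depth was not tested. Skeletal muscle miRNAs also set libraries apart, with a mean log2 level over 4 of them between 6.17 and 14.35. It was highest in Hete KO replicate 2 and in WT replicates 2 and 1, and lowest in Homo KO replicates 2 and 3. All 4 had lower means in Homo KO, with a median difference of -3.54 from WT and -3.00 from Hete KO, and 0 of the 4 were called in limma; the median difference of Hete KO from WT was -0.49.

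miR-132-3p was the most abundant arm and was lower in all 6 knockout libraries than in any of the 3 WT libraries. Its log2 level was 9.40, 9.01 and 9.08 in WT replicates 1, 2 and 3. In Hete KO it was 8.71, 8.26 and 8.45, and in Homo KO it was 8.69, 8.32 and 8.46. The knockout genotypes overlapped with each other almost completely, while the lowest WT library lay 0.30 above the highest knockout library, a ratio of 1.23. The means were 9.16 ± 0.21 in WT, 8.48 ± 0.23 in Hete KO and 8.49 ± 0.19 in Homo KO (SD, n = 3 mice each). By rank, miR-132-3p stood between 152 and 166 of the 860 miRNAs in WT, between 175 and 194 in Hete KO and between 176 and 192 in Homo KO.

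**Figure D1:**
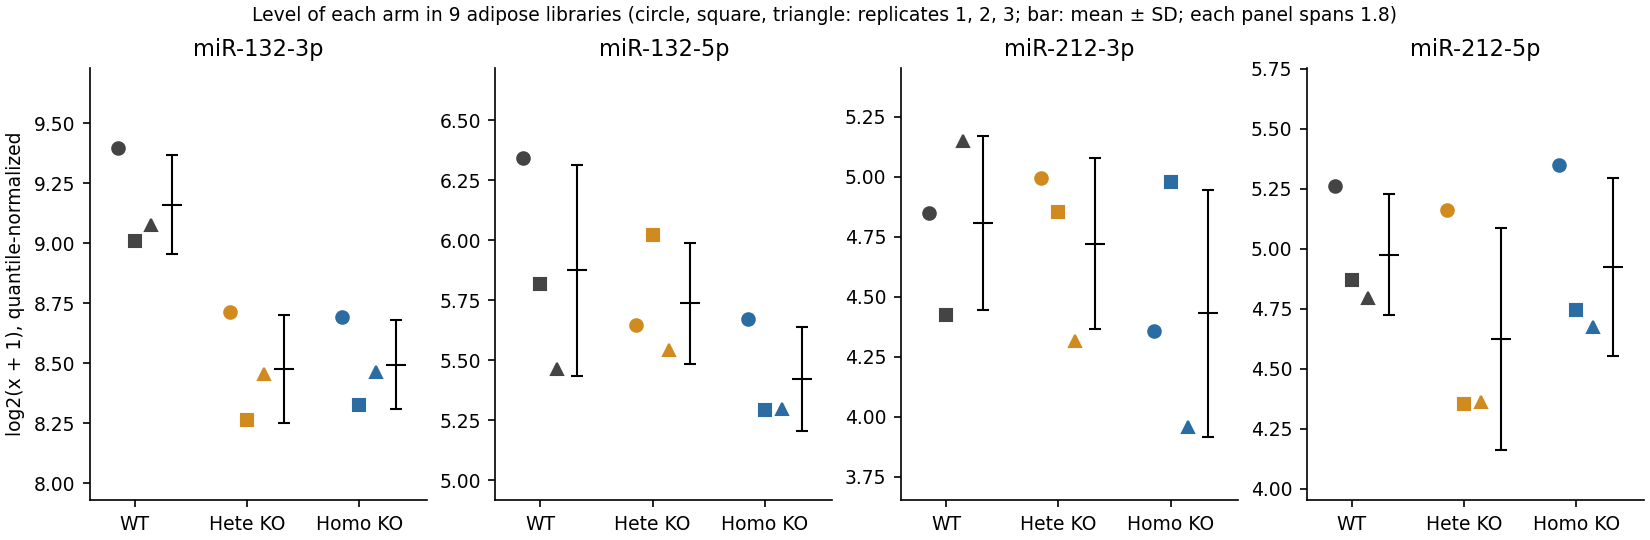
Log2(x + 1) level of each arm (vertical axis, 1.8 units in every panel but starting at different levels) by genotype. Circles, squares and triangles are replicates 1, 2 and 3, which are not known to pair mice across genotypes. Bars show the mean ± SD of 3 mice. For miR-132-3p the WT libraries, from 9.01 to 9.40, all lie above the knockout libraries, from 8.26 to 8.71; for the other arms the genotypes overlap.

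Because the miRNAs were chosen by name with results of these same libraries already known, and it is not recorded which values prompted the choice, the differences between genotypes are a description of these mice. The intervals and counts of calls given with them place the arms among the other miRNAs and are not a test of the pair. Both comparisons with WT use the same 3 WT libraries. On the log2 scale, miR-132-3p in Homo KO minus WT was -0.67 ± 0.18 (SE from limma, with a 95% interval of -1.06 to -0.27), a ratio of 0.630. In Hete KO minus WT it was -0.68 ± 0.18 (-1.08 to -0.29), a ratio of 0.622. Homo KO minus Hete KO was 0.02 ± 0.18 (-0.38 to 0.41), an interval that holds differences of either sign. The knockout genotypes thus lay side by side, with no step between them that this number of mice could resolve. A bulk measurement cannot tell fewer cells that contain miR-132-3p from less of it in each cell.

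These differences were neither rare nor the largest among the miRNAs. In Homo KO against WT 43 of the 489 tested miRNAs (8.79%) had a more negative difference than miR-132-3p, and in Hete KO against WT 28 (5.73%) did. This ranking takes no account of the spread between mice. The SD within genotypes was 0.207 for miR-132-3p, beside a median of 0.299 over the 489. All 6 knockout libraries were below all 3 WT libraries for 30 of the 489 (6.13%), miR-132-3p among them. Taking each knockout genotype alone, the groups lay apart with the knockout lower for 70 of the 489 (14.3%) in Homo KO and for 42 (8.59%) in Hete KO, against 1 of the 4 arms in each case. Between Homo KO and Hete KO the groups lay apart in either direction for 60 of the 489 (12.3%) and for 0 of the 4 arms.

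At an adjusted p under 0.05 in limma, 0 of the 4 arms were called in any comparison. Over all tested miRNAs the calls were 16 of 489 (3.27%) in Homo KO against WT, 8 in each direction. There were 2 (0.409%) in Hete KO against WT, both higher, and 0 (0%) in Homo KO against Hete KO. At an unadjusted p under 0.05 the arm miR-132-3p alone passed in each comparison with WT, beside 117 and 77 of the 489, and 0 of the 4 arms passed between the knockouts, beside 41 of the 489. miR-132-3p moved to the called side in Homo KO against WT with sample weights or with only the 262 miRNAs of higher mean level, and in Hete KO against WT with sample weights or without Hete KO replicate 1. Over all miRNAs the calls under these settings numbered 74 of 489, 25 of 262, 34 of 489 and 24 of 489 in that order.

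More miRNAs sat at the lowest value in most of the knockout libraries, although the 104 of WT replicate 2 exceeded the 101 of Hete KO replicate 1 and the 102 of Homo KO replicate 3. With that number as a covariate, the difference of miR-132-3p was -0.43 ± 0.21 in Homo KO against WT and -0.45 ± 0.21 in Hete KO against WT (SE), and 0 of the 489 miRNAs were called in either. When the covariate was instead the mean of the muscle miRNAs, the differences were -0.63 ± 0.21 and -0.68 ± 0.19. Leaving out 1 library at a time gave between -0.77 and -0.55 in Homo KO and between -0.80 and -0.57 in Hete KO. The sign was negative under all 21 alternatives in both comparisons.

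miR-132-5p, the other strand of the same hairpin, was about 3 log2 units lower and did not separate the genotypes. Its log2 level was 6.34, 5.82 and 5.46 in WT, 5.65, 6.02 and 5.54 in Hete KO and 5.67, 5.29 and 5.30 in Homo KO. The highest value was in WT replicate 1 and the lowest in Homo KO replicate 2, but WT replicate 3 lay below all of the Hete KO libraries and below Homo KO replicate 1. The means were 5.87 ± 0.44 in WT, 5.74 ± 0.25 in Hete KO and 5.42 ± 0.22 in Homo KO (SD, n = 3). Homo KO minus WT was -0.45 ± 0.26 (SE, 95% interval -1.04 to 0.13), and Hete KO minus WT was -0.14 ± 0.26 (-0.72 to 0.45). Homo KO minus Hete KO was -0.32 ± 0.26 (-0.90 to 0.27), so each of the 3 intervals held 0. Leaving out 1 library at a time moved Homo KO minus WT between -0.66 and -0.22, the latter without WT replicate 1.

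miR-212-3p carries the same seed as miR-132-3p and was near the lower end of the tested range. Its log2 level was 4.85, 4.43 and 5.15 in WT, 4.99, 4.85 and 4.32 in Hete KO and 4.36, 4.98 and 3.96 in Homo KO. Each genotype had libraries above and below those of the others. The means were 4.81 ± 0.36, 4.72 ± 0.36 and 4.43 ± 0.52 in that order (SD, n = 3). Homo KO minus WT was -0.38 ± 0.34 (SE, 95% interval -1.14 to 0.39), and Hete KO minus WT was -0.09 ± 0.34 (-0.85 to 0.68). The interval in Homo KO included the difference seen for miR-132-3p as well as 0, so these mice do not show whether the arms that share a seed moved alike; Homo KO minus Hete KO was -0.29 ± 0.34 (-1.06 to 0.48). Homo KO minus WT was -0.14 without Homo KO replicate 3 and -0.65 without Homo KO replicate 2.

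miR-212-5p, the 5p strand of the second hairpin, was as low as its 3p partner. Its log2 level was 5.26, 4.87 and 4.79 in WT, 5.16, 4.35 and 4.36 in Hete KO and 5.35, 4.74 and 4.67 in Homo KO. The genotypes overlapped, and the highest library of all was a Homo KO one. The means were 4.98 ± 0.25, 4.63 ± 0.46 and 4.92 ± 0.37 (SD, n = 3). Homo KO minus WT was -0.05 ± 0.31 (SE, 95% interval -0.75 to 0.64), Hete KO minus WT was -0.35 ± 0.31 (-1.05 to 0.35) and Homo KO minus Hete KO was 0.30 ± 0.31 (-0.40 to 1.0). The Hete KO mean was thus the lowest for this arm, and the Homo KO mean for miR-132-5p and miR-212-3p, with every interval holding 0. Leaving out 1 library at a time gave miR-212-5p differences from WT between -0.27 and 0.09 in Homo KO and between -0.62 and -0.21 in Hete KO, the ends without Homo KO replicate 1, Hete KO replicate 1 and, for the 2 upper ends, WT replicate 1.

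**Figure D2:**
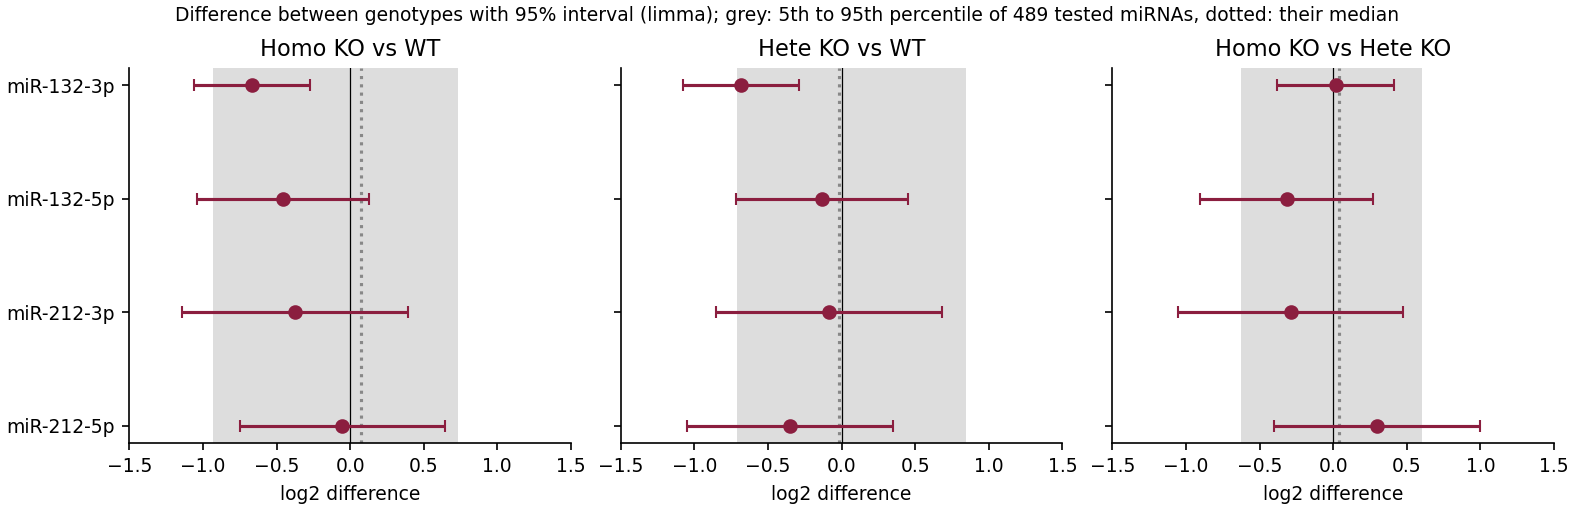
Log2 difference between genotypes (horizontal axis) for the 4 arms, with the 95% interval from limma; the grey band spans the 5th to the 95th percentile of the differences of the 489 tested miRNAs and the dotted line is their median. Against WT the intervals of miR-132-3p lie below 0, at -1.06 to -0.27 in Homo KO and -1.08 to -0.29 in Hete KO, and its point lies inside the grey band in all 3 comparisons.

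Over the 4 arms, differences from WT were negative for 4 in Homo KO and for 4 in Hete KO. In each of these comparisons the intervals of 3 of the 4 held 0, and both use the same WT libraries. The median was -0.41 in Homo KO, where that of all 489 tested miRNAs was 0.07, and -0.24 in Hete KO, where that of all was -0.02. Between Homo KO and Hete KO the median was -0.14, with 2 arms negative and 2 positive, beside 0.04 over all. The spread within genotypes differed by arm: the pooled SD was 0.207 for miR-132-3p, 0.319 for miR-132-5p, 0.418 for miR-212-3p and 0.372 for miR-212-5p. The median over the 78 tested miRNAs within 1 log2 unit of the mean of miR-132-3p was 0.223, and that over the 138 within 1 unit of the means of the other arms was 0.378. Each arm was therefore about as variable between mice as other miRNAs of its level, and a difference as large as that of miR-132-3p would be harder to resolve for the 3 rarer arms.

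The arms can be compared with each other within each library, where they share RNA, depth and normalization, and all are 22 or 23 bases long. Ligation and amplification favour some small RNAs over others, so these level differences are not molar ratios. For miR-132, the log2 level of the 3p arm minus that of the 5p arm was 3.03 ± 0.36 over the 9 libraries (SD, range 2.24 to 3.61), an 8.18-fold excess present in 9 of 9. For miR-212 the same difference was -0.19 ± 0.50 (-0.99 to 0.50), with 3 of 9 libraries positive. miR-132 thus had 1 dominant arm and miR-212 had none, even though its 3p arm carries the seed of the abundant one. Among the 141 hairpin names with both arms tested, the median absolute difference between arms was 3.06. It was smaller than that of miR-132 for 67 names and smaller than that of miR-212 for 3.

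By genotype, the excess of miR-132-3p over miR-132-5p was 3.29 ± 0.29 in WT, 2.74 ± 0.44 in Hete KO and 3.07 ± 0.08 in Homo KO (SD, n = 3), with overlapping values. The excess of miR-132-3p over miR-212-3p was 4.06 ± 0.48 over the 9 libraries (3.35 to 4.58), a 16.7-fold difference, and that of miR-132-5p over miR-212-5p was 0.84 ± 0.42 (0.32 to 1.67), a 1.78-fold difference. Both were positive in 9 of 9 libraries, so the order of levels was miR-132-3p, then miR-132-5p, then the arms of miR-212, whose order differed between libraries.

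**Figure D3:**
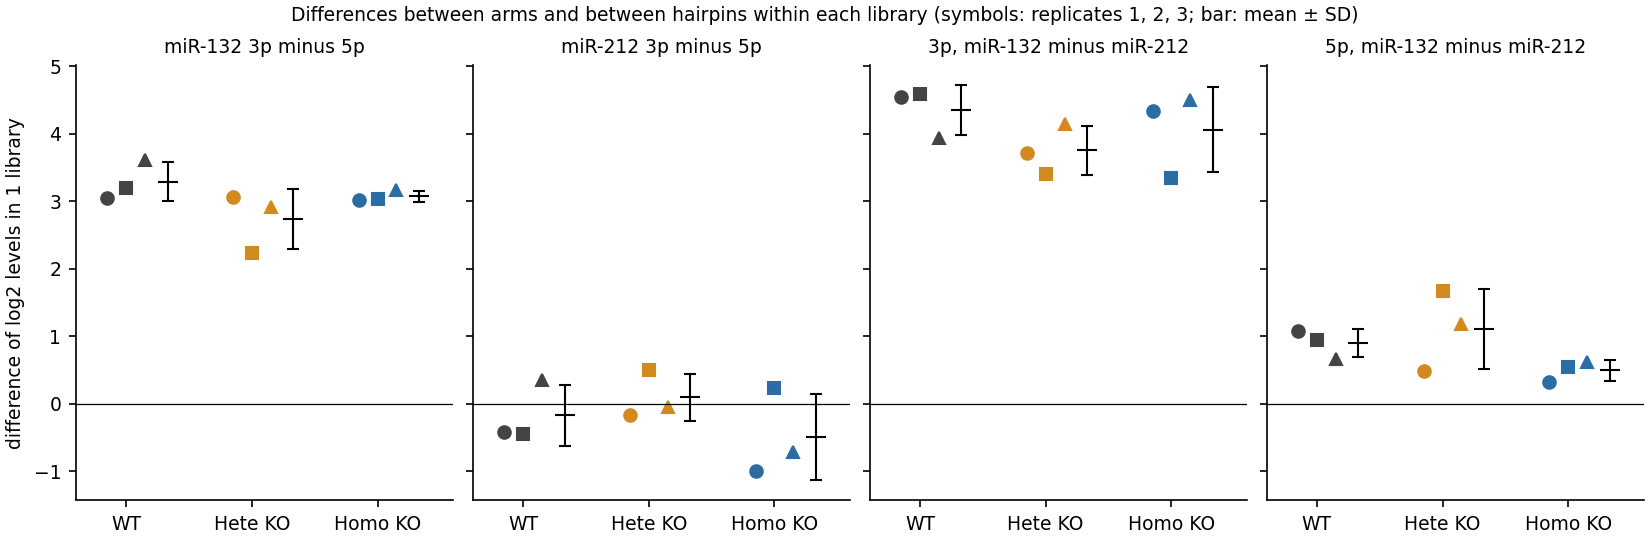
Difference of log2 levels within 1 library (vertical axis), by genotype, between the arms of miR-132, between the arms of miR-212, between the 3p arms and between the 5p arms; symbols are replicates 1, 2 and 3 and bars the mean ± SD of 3 mice. The arms of miR-132 differ by 2.24 to 3.61 in every library, while those of miR-212 scatter around 0.

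On the back-transformed scale, x rather than log2(x + 1), miR-132-3p had the largest share of the measured level of the 4 arms. It made up 83.1 ± 0.78% of the summed level of the 4 arms in WT (SD, n = 3), 77.5 ± 3.75% in Hete KO and 79.4 ± 2.42% in Homo KO. The WT libraries lay between 82.2% and 83.8%, above the ranges of 73.3% to 80.6% in Hete KO and 77.2% to 82.0% in Homo KO. The share of miR-132-3p was thus smaller in each knockout library than in any WT library, which rests on the same values of miR-132-3p and was not tested. miR-132-5p held 8.48%, 11.7% and 9.24% in WT, Hete KO and Homo KO, miR-212-3p held 4.02%, 5.61% and 4.83%, and miR-212-5p held 4.43%, 5.23% and 6.52%.

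The arms did not all follow one another from library to library. Over the 9 libraries Pearson's r of miR-132-3p was 0.52 with miR-132-5p, 0.24 with miR-212-3p and 0.63 with miR-212-5p. That of the miR-212 arms was 0.14. For comparison, the median r between the arms of the 141 hairpin names was 0.48, with 29 names below miR-212. With the mean of each genotype removed, r of miR-132-3p with miR-212-5p was 0.89 and with miR-212-3p -0.02. All these values describe 9 libraries that share a normalization and differ in genotype, in muscle miRNA level and in how many miRNAs are at the lowest value.

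The tested miRNAs outside the locus with a pattern most like that of miR-132-3p were miR-221-5p (r of 0.97 over the 9 libraries), miR-433-3p (0.94) and miR-221-3p (0.94). miR-221 is an abundant endothelial and smooth muscle miRNA with known roles in angiogenesis, and both of its mature arms were among the 3. Each of the 3 was lower in all 6 knockout libraries than in any WT library, beside 6.13% of all tested miRNAs. They were picked for high r with miR-132-3p over these same libraries, so the shared split is no independent evidence. The log2 level of miR-221-5p was 8.15, 7.70 and 7.59 in WT, 7.06, 6.82 and 6.93 in Hete KO and 7.07, 6.77 and 6.73 in Homo KO. The mean of miR-433-3p, from the imprinted Dlk1-Dio3 region, was 6.37 ± 0.08 in WT, 5.65 ± 0.27 in Hete KO and 5.48 ± 0.36 in Homo KO, and that of miR-221-3p was 12.97 ± 0.15, 12.06 ± 0.45 and 12.01 ± 0.13 (SD, n = 3). With genotype means removed, r with miR-132-3p was 0.87 for miR-221-5p, 0.81 for miR-433-3p and 0.72 for miR-221-3p. The choice by r over the same libraries favours high values here too, so these are a description only. Replicate 1 was the highest library of each genotype for both miR-132-3p and miR-221-5p.

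**Figure D4:**
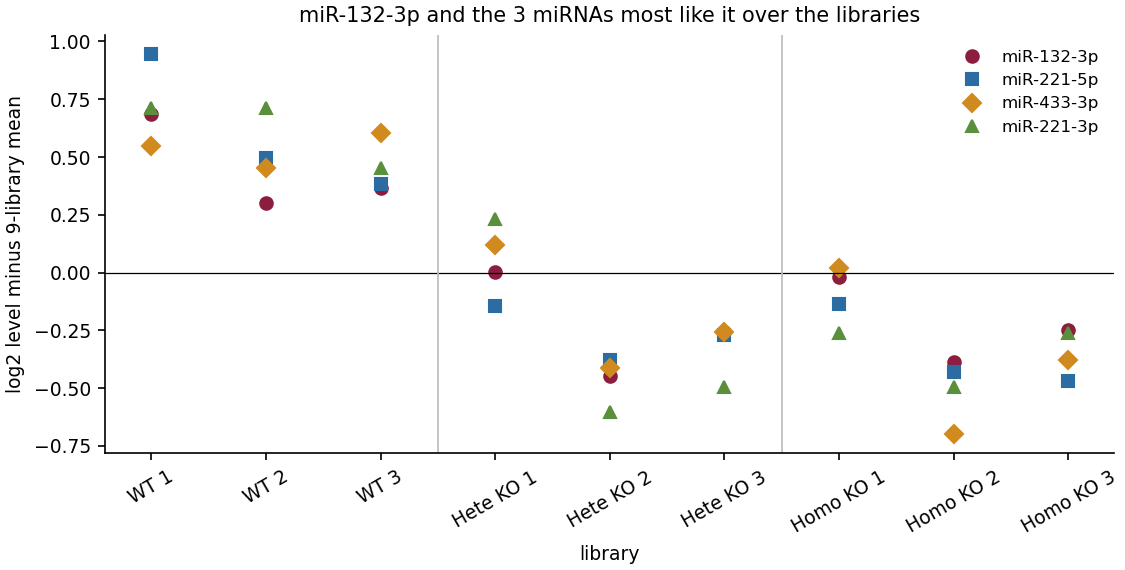
Log2 level minus the mean over 9 libraries (vertical axis) for miR-132-3p and the 3 tested miRNAs with the highest r with it, in each library (horizontal axis, grouped by genotype). For all 4 the WT libraries lie above the knockout libraries, and replicate 1 of Hete KO is the highest knockout library for miR-132-3p, miR-433-3p and miR-221-3p.

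miR-132-5p followed other miRNAs than its 3p partner did. The 3 most like it were miR-133a-3p (r of 0.90), miR-1a-1-5p (0.90) and miR-133b-3p (0.90), all from striated muscle. Its lowest levels, 5.29 and 5.30, were in Homo KO replicates 2 and 3, where the muscle miRNA mean was also lowest at 6.17 and 7.40. Its 3 highest levels, 6.34, 6.02 and 5.82, were in the 3 libraries with the highest muscle mean, at 13.40, 14.35 and 13.73. With the muscle mean as a covariate, Homo KO minus WT for miR-132-5p was -0.18 ± 0.24 (SE), and over the 6 libraries with the lowest muscle mean, which leave 1 WT library, it was -0.04. That value rests on WT replicate 3 as the only WT mouse, so its error would come from the other genotypes alone. The summed level of the 4 muscle miRNAs ran, as a log2 value, from 12.24 to 19.19 in WT, from 14.28 to 20.10 in Hete KO and from 11.57 to 16.35 in Homo KO. None of the 4 was at the lowest value in all 9 libraries, and the part of muscle RNA in the level of miR-132-5p was not tested.

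**Figure D5:**
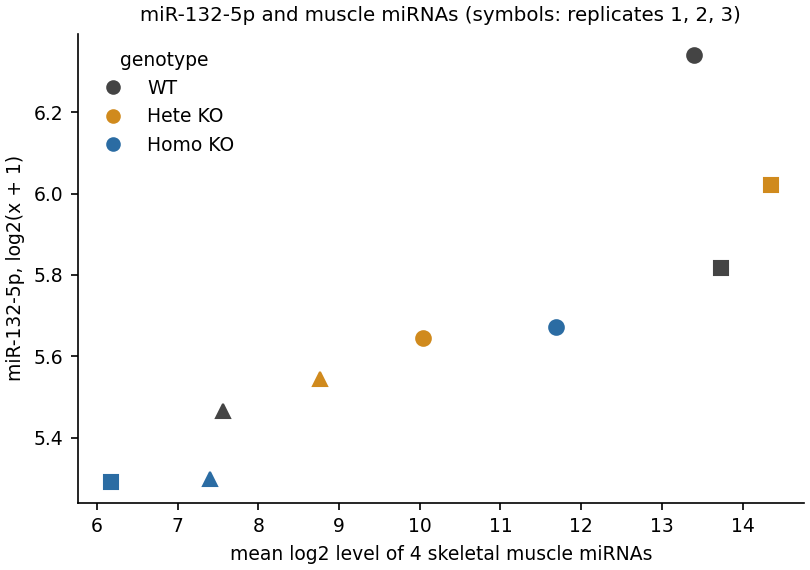
Log2 level of miR-132-5p (vertical axis) against the mean log2 level of the skeletal muscle miRNAs miR-206-3p, miR-133b-3p, miR-133a-3p and miR-1a-3p (horizontal axis) in the 9 libraries, coloured by genotype. The 3 libraries with the highest muscle mean, from 13.40 to 14.35, have the 3 highest levels of miR-132-5p, and include 2 WT and 1 Hete KO library.

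For miR-212-3p the most alike were miR-186-3p (r of 0.78), miR-1943-5p (0.77) and miR-3064-5p (0.72), all with means under 4.3 in every genotype. For miR-212-5p they were miR-154-3p (0.82), miR-301a-5p (0.81) and miR-34c-3p (0.79). These values were lower than those of the miR-132 arms, and none of these 6 miRNAs had all knockout libraries below the WT libraries.

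Other miRNAs tied to angiogenesis were described beside the pair, from a list of 30, all of which were tested. In Homo KO against WT 3 of the 30 were called, all lower, beside 3.27% of all tested miRNAs. They were miR-221-3p (-0.96 ± 0.21, SE), miR-18a-5p (-0.71 ± 0.14), made from the same cluster as miR-20a-5p, and miR-503-5p (-0.79 ± 0.17), a regulator of the cell cycle. Each of the 3 calls was lost without WT replicate 1, WT replicate 2, Hete KO replicate 3 or any 1 of the Homo KO libraries, and that of miR-221-3p also without WT replicate 3; with the covariate for miRNAs at the lowest value none of the 489 was called. In Hete KO against WT 0 of the 30 were called in limma. The differences from WT were negative for 19 of 30 in Homo KO, with a median of -0.17, and for 18 of 30 in Hete KO, with a median of -0.19, where the medians over all 489 were 0.07 and -0.02.

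All 6 knockout libraries lay below the WT libraries for 7 of the 30 (23.3%), beside 6.13% of all tested miRNAs: miR-126a-5p, miR-221-3p, miR-18a-5p, miR-20a-5p, miR-23a-3p, miR-503-5p and miR-322-5p. miR-132-3p had the same pattern. The list was drawn up with results of these libraries known, so its counts are no independent evidence. Its 2 most abundant members were not among the 7. For miR-126a-3p this came from a tie: the lowest WT level, 17.58, was also the highest level in Hete KO and in Homo KO. No knockout library thus lay above a WT library for miR-126a-3p. miR-126a-3p, which is largely confined to endothelium and favours vessel integrity, had means of 17.80 ± 0.21 in WT, 17.29 ± 0.40 in Hete KO and 17.53 ± 0.08 in Homo KO (SD, n = 3), and miR-10b-5p had means of 16.71 ± 0.11 and 16.73 ± 0.18 in WT and Hete KO and was at 16.84 in each Homo KO library, a shared rank level.

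The arms of miR-126a served as the endothelial markers; no list of adipocyte miRNAs was used, so the labelled tissue was not checked against markers of its own. miR-126a-5p was 15.04, 15.34 and 14.95 in WT, 14.52, 14.52 and 14.65 in Hete KO and 14.48, 14.80 and 14.65 in Homo KO, which put all knockout libraries below all WT libraries, as for miR-132-3p. Its differences from WT were -0.47 ± 0.14 in Homo KO and -0.54 ± 0.14 in Hete KO (SE), and 0 of the 2 arms were called in either comparison. The log2 summed level of both arms ran from 17.81 to 18.20 in WT, from 17.10 to 17.74 in Hete KO and from 17.64 to 17.77 in Homo KO. Fewer endothelial cells and less miR-126a in each cell cannot be told apart here, and the part of either in the level of miR-132-3p was not tested.

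Markers of other cells that make miR-132 or share the tissue were also present. miR-132 is abundant in neurons, and of 10 neural miRNAs 8 were tested and 0 were called against WT in either knockout. Over all tested miRNAs the calls were 3.27% in Homo KO and 0.409% in Hete KO. Their log2 summed level ran from 10.52 to 10.94 in WT, from 10.43 to 11.51 in Hete KO and from 10.84 to 11.40 in Homo KO. The most abundant, miR-338-3p and miR-9-5p, differed from WT by 0.69 ± 0.25 and 0.53 ± 0.34 in Homo KO (SE). In Hete KO they differed by 0.44 ± 0.25 and 0.24 ± 0.34. Among the 8 neural miRNAs, 2 were negative in Homo KO and 3 in Hete KO. Of 7 leukocyte miRNAs 1 was called in Homo KO against WT, beside 3.27% of all tested miRNAs. It was miR-142a-5p, at 1.26 ± 0.25 higher (SE). The summed level ran from 14.47 to 14.55 in WT, from 14.17 to 14.69 in Hete KO and from 14.71 to 15.06 in Homo KO. Differences from WT were positive for 5 and negative for 2 of the 7 in Homo KO, with a median of 0.23. In Hete KO 3 were positive and 4 negative. The most abundant of these, miR-150-5p and miR-146a-5p, differed from WT by 0.71 ± 0.22 and 0.24 ± 0.21 in Homo KO.

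Of 7 epithelial miRNAs 1 was called in Homo KO against WT, miR-203-3p, at 0.95 ± 0.18 higher (SE), beside 3.27% of all tested miRNAs. The summed level of the 7 ran from 11.79 to 12.23 in WT, from 12.90 to 12.97 in Hete KO and from 12.80 to 12.96 in Homo KO, so it was higher in every knockout library. Most of that sum was miR-203-3p, itself from 11.71 to 12.16 in WT and from 12.38 to 12.92 in the knockouts. The share of all tested miRNAs with every knockout library above WT is not given here, so this split has no background beside it. The mean log2 level over the 7 ran from 5.62 to 6.03 in WT, from 5.91 to 8.97 in Hete KO and from 6.08 to 6.75 in Homo KO, so WT and Hete KO overlapped. The other abundant one, miR-200a-3p, had means of 5.83 ± 0.35, 7.47 ± 1.73 and 6.53 ± 0.15 in WT, Hete KO and Homo KO (SD, n = 3), with Hete KO libraries between 6.18 and 9.44. Of 4 mural and stromal miRNAs 0 were called in limma; the most abundant, miR-143-3p and miR-199a-3p, differed from WT by 0.19 ± 0.19 and -0.06 ± 0.17 in Homo KO (SE), and the summed level ran from 19.56 to 20.07 in WT, from 19.52 to 20.08 in Hete KO and was 20.07 in each Homo KO library. The calls of miR-142a-5p and miR-203-3p were also lost without WT replicate 1, WT replicate 2, Hete KO replicate 3 or any 1 of the Homo KO libraries, and that of miR-142a-5p without WT replicate 3. None of the markers named was at the lowest value in all 9 libraries, and their part in the level of miR-132-3p was not tested.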

How the data were processed

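Small RNA from 9 mice was extracted with Trizol and prepared with the TruSeq small RNA kit, per the labels' protocols, and the genome build was mm10, per the submitters' processing notes. Not given in the sources used here are the aligner, the counting tool, the annotation and the normalization. The deposited values are on a log2 scale and behave as quantile-normalized log2(x + 1). The steps from there were as follows. Tested were the 489 of 860 miRNAs with a mean of 3.46, or log2(10 + 1), or more that exceeded their library's minimum in 3 or more libraries. Genotypes were compared in 1 fit of all 9 libraries with limma 3.58.1 (variance trend) in R 4.3.3, with Benjamini-Hochberg adjustment and a threshold of 0.05, tested on simulated data. Likeness is Pearson's r over the libraries. Named were the 4 arms, the 3 tested miRNAs most like each, and the 2 most abundant of each list; list members that were called or lay below WT were named after their values were seen. The lists held endothelial, skeletal muscle, leukocyte, neural, epithelial, mural and stromal and angiogenesis-linked miRNAs. The members and the lists were chosen with earlier results of these data known. Alternatives were another added value, no filter and a stricter one (mean of at least log2(100 + 1)), other scalings, no trend, sample weights, a replicate block, leaving out the third genotype and leaving out each library; the covariates, the 6 libraries low in muscle miRNAs and the gap on other scales were chosen after seeing the data.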

Additional observations from a re-analysis of the deposited data

How the results depend on the processing

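The depth behind each value is unknown, and 3 mice a genotype limit the precision. With a covariate for how many miRNAs sat at the minimum of a library, miR-132-3p differed from WT by -0.43 in Homo KO and -0.45 in Hete KO, the only 1 of 21 alternatives in each comparison that moved it by more than the spread between mice; the cause was not tested. The number of arms called against WT became 1 (miR-132-3p) in Homo KO with the stricter filter, where fewer miRNAs are tested, and with sample weights, and in Hete KO with sample weights. Leaving out 1 library gave 0 arms called in Homo KO each time and 0 to 1 in Hete KO. Over all miRNAs, calls in Homo KO against WT ran from 0 (the same covariate) to 74 (sample weights) around 16, and in Hete KO from 0 to 34 around 2; 4 were called between the knockouts with the 6 libraries low in muscle miRNAs, and 0 otherwise. The gap between the lowest WT and the highest knockout library was 0.29 to 0.30 on every scale tried. miR-132-5p differed from WT by -0.04 in Homo KO over those 6 libraries, of which 1 is WT. The sign of the difference from WT changed in 2 of 20 alternatives each for miR-132-5p and miR-212-3p in Hete KO. It changed in 6 of 20 for miR-212-5p in Homo KO, and in 3 of 21 for miR-132-3p between the knockouts. The alternatives reuse the same libraries, so a sign that did not change is not thereby certain. In every comparison the limma intervals of the 3 rarer arms held 0, and between the knockouts that of miR-132-3p did too. The stricter filter kept only miR-132-3p of the arms.

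With the replicate number as a block, 1 arm (miR-132-3p) was called in Homo KO and 1 in Hete KO, beside 25 and 15 of 489 miRNAs. With that block the SE of miR-132-3p against WT was 0.126, beside 0.176 without it. It is not known whether the numbers pair mice or mark a batch. Deviations of same-numbered libraries of different genotypes correlated at -0.28 to 0.55, and those of different-numbered ones at -0.70 to 0.54. These ranges overlap. For miR-132-3p itself, replicate 1 was the highest and replicate 2 the lowest library in each genotype, an order that the block takes up. A shared effect of the replicate number was not tested.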
